A study of Caenorhabditis elegans with 2 samples.

Results

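The swsn genes of Caenorhabditis elegans encode subunits of the SWI/SNF chromatin remodelling complexes, and binding sites of the protein HMG-1.1 were located around them. Of 8 swsn symbols listed, 7 are protein-coding genes in the Ensembl annotation, out of 19973 on the nuclear chromosomes; swsn-8 matched no symbol there and is not counted among the members. The literature uses that name for let-526, which is described apart from them below. The members are swsn-1, swsn-2.2, swsn-3, swsn-4, swsn-6, swsn-7 and swsn-9. They were chosen by name, with earlier results of these data known, so the counts of them below are descriptive. Every peak summit from 2000 bp upstream of the gene start to the gene end was collected. The data are peak lists from chromatin immunoprecipitation and sequencing (ChIP-seq) of whole fourth-stage (L4) larvae aged 48 hours, of strain RW12311, with 2 biological replicates in 1 group. The strain carries the CRISPR insertion st12311 at hmg-1.1 itself on chromosome II, which adds the TY1, EGFP and 3xFLAG tags, so the fusion is expressed from its own locus, and the antibody was against GFP. The larvae had been synchronised by starving hatchlings after bleaching, and all tissues were mixed, so no peak can be assigned to a cell type. With 1 group there is no other condition to test against, and counts of swsn genes stand beside the share of all protein-coding genes that meets the same rule.

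SWI/SNF complexes use ATP to slide or evict nucleosomes. A core of an ATPase, scaffold proteins and actin-related proteins is shared, and accessory subunits set apart the BAF and PBAF forms. In worms the core is known for its part in asymmetric cell divisions and in the exit from the cell cycle. HMG-1.1 belongs to the high mobility group box proteins, which bend DNA.

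The authors called peaks on each replicate and on both together, and kept those that pass a limit on the irreproducible discovery rate (IDR, a measure of how well peak ranks repeat). The main list here is the series list they call conservative, with 4277 peaks. The thresholded lists of replicate 1 and replicate 2 hold 2613 and 3082 peaks, and their ranked lists, which keep weak peaks, hold 50642 and 46532. The lists give no read counts, so depth is unknown. The signal of a peak is the authors' enrichment value on a scale that is not stated, and it is compared here by rank within a list, with rank 1 the strongest. The tagged gene hmg-1.1 itself had 1 conservative summit within 500 bp of its start (signal 342).

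HMG-1.1 summits that passed the IDR limit stood upstream of 5 of the 7 swsn genes. The genes were swsn-1, swsn-3, swsn-4, swsn-6 and swsn-7, and in each the peak was in the thresholded list of both replicates. Together they held 6 conservative summits, all 6 upstream of the start. The 2 genes with none, swsn-2.2 and swsn-9, both lie on chromosome I. Among all protein-coding genes, 18.9% had a conservative summit in the same window from 2000 bp upstream to the gene end, 12.3% in replicate 1, 14.1% in replicate 2 and 19.3% in the authors' other thresholded series list. The swsn genes are longer than most, with a median of 4670 bp against 2027 bp for all protein-coding genes, which widens their windows. The longer gene bodies added none of the 6 summits, since all of them lay in the upstream stretch, which is 2000 bp for every gene. The share of 18.9% also counts summits inside genes, and a share for the upstream stretch alone was not computed. Counting let-526 as an eighth member, a choice made after its values were seen, would change this picture, since it had 8 conservative summits inside the gene: a summit inside would then be found in 1 of 8 genes, and 8 of 14 conservative summits would lie inside one. Some of those 8 summits come from shared or overlapping peak intervals. Inside the gene, from start to end, 0 of 7 swsn genes had a conservative summit, and 5.4% of all protein-coding genes did. Most genes thus had none inside, so the 0 of 7 does not set the swsn genes apart. The count was also 0 of 7 in each replicate's thresholded list, where 3.2% of all protein-coding genes had one in replicate 1 and 3.63% in replicate 2.

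**Figure D1:**
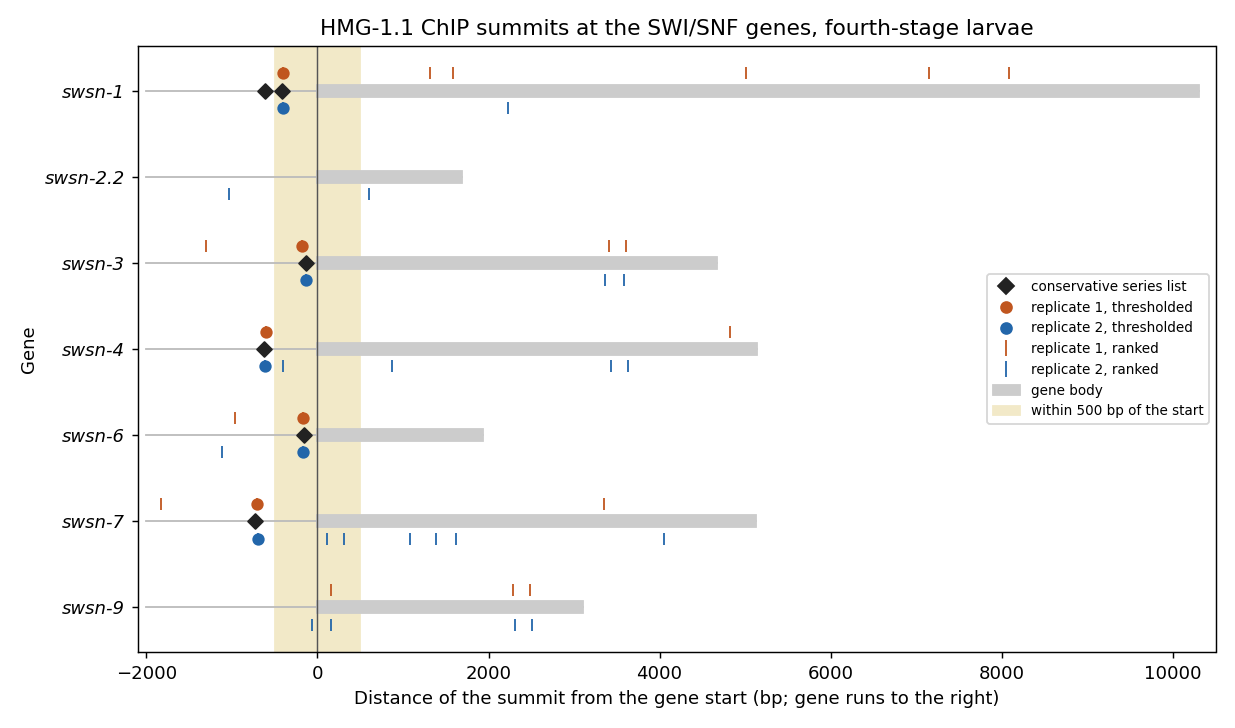
Positions of all HMG-1.1 summits around the 7 swsn genes, on a horizontal axis of distance from the gene start in bp. Diamonds are the conservative series list, circles the thresholded list of each replicate and ticks the ranked lists; the 5 genes with diamonds have them upstream of the start, between -728 and -133 bp, and swsn-2.2 and swsn-9 have ticks only.

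The reference sequence under each of these peaks is shown because the 5 summits differ in composition. Each run is the base of the strongest conservative summit of the gene with 50 bases to either side, written 5′ to 3′ on the strand of the gene, from the NCBI assembly WBcel235, which is ce11. Capitals mark matches, on either strand, to 6 short motifs that were searched, namely the purine repeat GAGAGA, the A tract AAAAAA, the splice acceptor sequence TTTCAG, the CG repeat GCGCGC, the TATA box as TATAAA and the E-box palindrome CACGTG.
swsn-1 (chrV:20249853-20249953, minus strand): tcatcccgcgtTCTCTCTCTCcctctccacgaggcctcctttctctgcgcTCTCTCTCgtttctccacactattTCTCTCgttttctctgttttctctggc
swsn-3 (chrIII:2768762-2768862, minus strand): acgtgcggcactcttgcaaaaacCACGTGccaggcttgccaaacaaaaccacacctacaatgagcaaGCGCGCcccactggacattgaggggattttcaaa
swsn-4 (chrIV:11125354-11125454, plus strand): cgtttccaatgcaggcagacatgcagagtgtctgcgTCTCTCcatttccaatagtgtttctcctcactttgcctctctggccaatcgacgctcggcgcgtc
swsn-6 (chrIV:5394824-5394924, plus strand): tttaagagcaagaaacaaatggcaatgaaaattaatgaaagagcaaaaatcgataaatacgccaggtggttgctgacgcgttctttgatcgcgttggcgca
swsn-7 (chrII:8028441-8028541, minus strand): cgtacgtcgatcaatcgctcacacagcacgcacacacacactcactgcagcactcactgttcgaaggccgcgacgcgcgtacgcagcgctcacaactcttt

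The swsn-1 window is rich in pyrimidines on the gene's strand, with 6 matches to GAGAGA, some of them overlapping, read as TCTCTC. The swsn-4 window has 1 such match. Of all 4277 conservative summit windows of the same length, 28.2% hold at least 1 match to GAGAGA and 1.19% hold at least 6. The swsn-3 window holds 1 match to CACGTG and 1 to the repeat GCGCGC, which are found in 3.23% and 6.83% of all windows. No match to any of the 6 motifs lies in the windows of swsn-6 and swsn-7, which says only that these letters are not there. The A tract, the splice acceptor sequence and the TATA box, found in 22.4%, 6.27% and 4.04% of all windows, have no match in the 5 windows. The GC content was 58.4% at swsn-7, 54.5% at swsn-4, 52.5% at both swsn-1 and swsn-3, and 40.6% at swsn-6, beside a median of 48.5% over all windows. Thus the GC content of the swsn-6 window was below the median of the peak windows and that of the other 4 above it.

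Among the catalytic and core subunit genes, swsn-4 encodes the SWI2/SNF2 ATPase, the homolog of BRG1 and BRM. It lies on chromosome IV (11126024 to 11131162, plus strand, WBGene00004204). Its only conservative summit was 620 bp upstream of the start, with a signal of 145 and rank 1469 of 4277. Replicate 1 had the summit at -604 bp (signal 74.0, rank 1255 of 2613) and replicate 2 at -615 bp (signal 74.2, rank 1632 of 3082). Both replicates thus placed it in the same stretch between genes, near the middle of their lists. That stretch separates swsn-4 by 1161 bp from spo-11, a divergent gene for the enzyme that makes meiotic DNA breaks. The conservative summit lay nearer to the spo-11 start (-542 bp) than to the swsn-4 start, and within 500 bp of neither.

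swsn-1 encodes the scaffold subunit related to SWI3 and BAF155, and is the longest of the set (chromosome V, 20239182 to 20249488, minus strand, WBGene00004203). Its stronger conservative summit was at -415 bp, with a signal of 185 and rank 966 of 4277. The replicates had it at -408 bp (signal 78.9, rank 1124 of 2613) and -405 bp (signal 104, rank 964 of 3082). A second conservative summit at -614 bp was weak, with a signal of 13.9, rank 4151 and a q-value of 0.916. The intervals of these 2 conservative peaks overlap (20249815 to 20249964 and 20249914 to 20250289), and each replicate listed 1 peak there that overlaps both intervals and ends before the second summit. The summits lie between genes. The next gene upstream is mdt-17, a Mediator subunit gene on the same strand whose end is 1317 bp away.

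swsn-6 encodes an actin-related protein of the complex, the homolog of BAF53 (chromosome IV, 5395033 to 5396969, plus strand, WBGene00022774). Its conservative summit was at -159 bp, with a signal of 150.1 and rank 1389 of 4277. Replicate 1 had -165 bp (signal 66.4, rank 1487 of 2613) and replicate 2 had -167 bp (signal 82.6, rank 1380 of 3082). This is the tightest of the 5 sites in position, with 2 bp between the replicate summits. It sits in a gap of 228 bp between swsn-6 and perm-3, a divergent gene of the eggshell's permeability barrier, and is 70 bp from the perm-3 start. The summit therefore counts for both genes, and with each summit given to its nearest protein-coding start it counts for perm-3 alone. The non-coding gene ZK616.62 also starts 284 bp away.

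swsn-3 encodes the homolog of BAF57, itself an HMG-box subunit (chromosome III, 2764010 to 2768679, minus strand, WBGene00022182). Its conservative summit was at -133 bp, the nearest to its own start of all the listed swsn summits, with a signal of 182 and rank 1005 of 4277. Replicate 1 had it at -180 bp (signal 74.2, rank 1247 of 2613) and replicate 2 at -133 bp (signal 94.3, rank 1118 of 3082). The 47 bp between the replicate summits is the widest spacing of the 5 genes. The upstream neighbour laf-1, a DEAD-box RNA helicase gene on the same strand, ends 676 bp before the swsn-3 start. The site also lies in an intron of cox-6B on the other strand, whose annotated gene model spans the whole swsn-3 locus.

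Of the genes for the other core proteins, swsn-2.2 (chromosome I, 4210979 to 4212667, plus strand, WBGene00015971), one of a pair of BAF60 homologs with ham-3, had no summit in any thresholded list. The ranked list of replicate 1 had none either. That of replicate 2 had 2, at 604 bp in a coding exon (signal 23.9, rank 12890 of 46532) and at -1030 bp in a coding exon of hop-1 (signal 18.8). Their global IDR values were 0.645 and 0.838, far above the limit. hop-1, a presenilin gene, starts 637 bp away in the opposite direction.

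swsn-7 and swsn-9 encode subunits of the PBAF form, and they lay at opposite ends of the set. swsn-7, the homolog of the ARID2 subunit BAF200 (chromosome II, 8022632 to 8027763, minus strand, WBGene00007433), had the strongest peak of the 7 genes in all 3 lists. The conservative summit at -728 bp had a signal of 397 and rank 137 of 4277. Replicate 1 had -709 bp (signal 190.0, rank 126 of 2613) and replicate 2 had -700 bp (signal 201, rank 175 of 3082). It lies beyond the 500 bp distance and has no other protein-coding start within 1000 bp. The summit falls in an exon of the non-coding gene C08B11.11, 321 bp from its start, and 246 bp upstream of the non-coding gene C08B11.13. The nearest upstream protein-coding gene, nrf-6, is on the same strand and ends 1189 bp from the swsn-7 start.

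swsn-9 encodes a bromodomain protein related to BRD7 and BRD9 (chromosome I, 7224656 to 7227765, plus strand, WBGene00007256), and had no summit in any thresholded list. Its ranked list in replicate 2 had a summit at -63 bp with a signal of 20.2, rank 18224 of 46532, and a global IDR of 0.0504. That was the lowest global IDR among the swsn summits that the replicates' ranked lists add to the thresholded ones, where the limit is 0.01. Replicate 1 had a ranked summit at 161 bp in the 5′ UTR (signal 18.6, rank 19726 of 50642, global IDR 0.630). The start lies 174 bp after the end of cnnm-4 on the same strand.

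Within 500 bp of the start, the distance used for a gene start site, the conservative list marked swsn-6, swsn-1 and swsn-3, which is 3 of 7 swsn genes, where 9.78% of all protein-coding genes were marked (95% Wilson interval 9.38 to 10.2, counting error over genes only). Each replicate's own list marked the same 3 genes, where 6.06% of all protein-coding genes were marked in replicate 1 and 7.3% in replicate 2, and so did the other thresholded series list, where the share was 9.92%. The farthest summit inside the distance was that of swsn-1 at -415 bp, and the nearest one outside it was the weak second summit of swsn-1 at -614 bp, followed by that of swsn-4 at -620 bp. With 250 bp the count was 2 of 7, where 6.26% of all protein-coding genes were marked, and with 1000 bp it was 5 of 7, where 13.0% were marked. Given to the nearest protein-coding start alone, summits within 500 bp marked 2 of 7, swsn-1 and swsn-3, where 7.98% of all protein-coding genes were marked. The replicates' own lists marked the same 2 genes under that rule, with shares of 4.93% and 5.97% for all protein-coding genes in replicate 1 and replicate 2. By chromosome, 14.1% of protein-coding genes on I had a summit within 500 bp, the highest of the 6 chromosomes. The 2 members there had none, as did most protein-coding genes on I, so this does not set them apart. The share was 6.09% on V, where swsn-1 lies.

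The strongest peak was that of swsn-7 in both replicates, and swsn-1, swsn-3 and then swsn-4 with swsn-6 followed in both. Rank as a percent of the list (0 for the strongest) averaged 5.25 ± 0.605 for swsn-7, 37.1 ± 8.30 for swsn-1, 42.0 ± 8.09 for swsn-3, 50.5 ± 3.48 for swsn-4 and 50.8 ± 8.58 for swsn-6 (SD, n = 2 replicates). The step of 31.9 between swsn-7 and swsn-1 was larger than the spread of either, and their replicate values did not overlap. swsn-1 and swsn-3 were closer, with replicate values that overlap between the genes. Within each replicate, however, swsn-1 ranked ahead of swsn-3, by 4.71 percentage points in replicate 1 and 5.00 in replicate 2, and both genes ranked higher in replicate 2. The conservative list, which was called on the same 2 replicates and is not independent of them, had the same order, with a difference of 0.912. swsn-3 ranked ahead of swsn-4 by 0.306 in replicate 1 and 16.7 in replicate 2. The order of swsn-4 and swsn-6 changed between lists, with swsn-4 stronger by 8.88 in replicate 1 and swsn-6 stronger in replicate 2 and in the conservative list. For the 3 genes with a summit within 500 bp, the ranks can be set beside the median rank of all peaks within 500 bp of a protein-coding start, which was 44.3% in the conservative list, 47.1% in replicate 1 and 47.9% in replicate 2. In the conservative list swsn-1, swsn-3 and swsn-6 ranked between 22.6% and 32.5%, all stronger than that median. In the replicates' own lists swsn-1 was stronger than the median in both, and swsn-3 and swsn-6 in replicate 2 only. The peaks of swsn-4 and swsn-7 lie farther from the start and are not of the kind that this median covers.

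**Figure D2:**
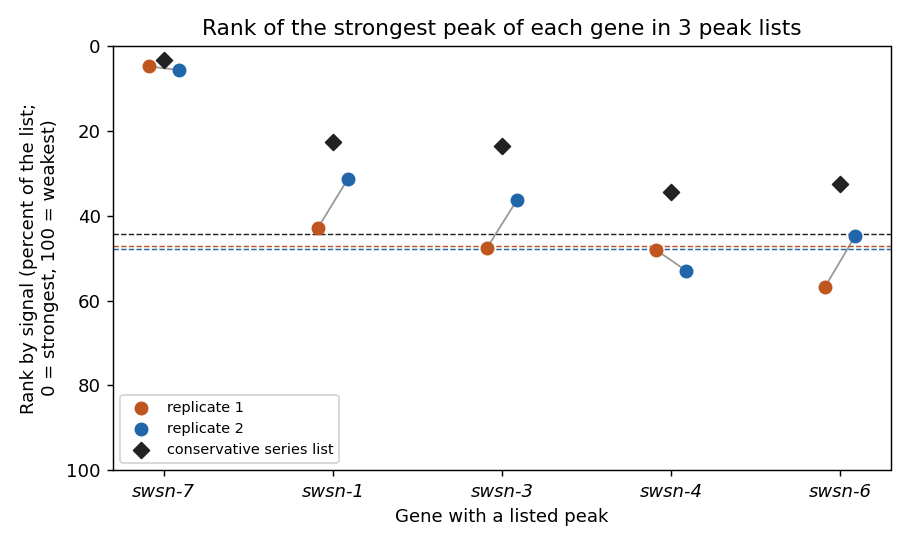
Rank by signal of the strongest peak of each of the 5 swsn genes with a listed peak, as a percent of its list (vertical axis, 0 at the top is the strongest). Circles are the replicates' own thresholded lists, joined by a line, diamonds the conservative series list, and dashed lines of the same colours the median of all peaks within 500 bp of a protein-coding start, a group that does not include the peaks of swsn-4 and swsn-7; swsn-7 stands between 3.20% and 5.68% in all 3 lists and the other 4 genes between 22.6% and 56.9%.

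The replicates placed 4 of the 5 summits closer together than the median of all shared peaks, which by definition divides those peaks evenly. With 5 genes, this count does not set the swsn genes apart. The distance between the replicate summits was 2 bp at swsn-6, 3 bp at swsn-1, 9 bp at swsn-7, 11 bp at swsn-4 and 47 bp at swsn-3. Over all 2131 peaks of replicate 1 that overlap one of replicate 2, the median distance was 20 bp (quartiles 8 and 46.5). The peak intervals of the 2 replicates overlapped each other and the conservative peak at all 5 genes. The conservative peaks of swsn-1 and swsn-7 were 150 and 232 bp wide, where the other 3 had 376 bp, the median width of the list.

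Below the threshold, summits were scattered over the gene bodies. The ranked list of replicate 1 added 15 summits over the 7 genes, 12 of them inside a gene, with signals of 3.00 to 28.4. That of replicate 2 added 20, of which 16 were inside a gene, with signals of 7.31 to 34.8. At this level 4 of 7 swsn genes in replicate 1 and 6 of 7 in replicate 2 had a summit within 500 bp of the start, where 40.4% and 38.1% of all protein-coding genes had one. Over the whole window the counts were 6 of 7 in replicate 1 and 7 of 7 in replicate 2, where 68.6% and 65.5% of all protein-coding genes had one. At this level, then, most protein-coding genes had a summit in the window. Of these weak summits, 5 pairs stood within 50 bp of each other in the replicates, and they lay in 2 genes, swsn-3 and swsn-9. In an intron of swsn-3 the pairs were at 3406 bp in replicate 1 with 3367 bp in replicate 2, and at 3609 bp in replicate 1 with 3585 bp in replicate 2. In swsn-9 they were at 161 bp in replicate 1 with 163 bp in replicate 2, at 2285 bp with 2309 bp, and at 2489 bp with 2512 bp. None of these 5 pairs had a global IDR under 0.01 in either replicate.

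By the pair of rank percents in the 2 replicates, the gene most like swsn-6 among 1022 protein-coding genes with a start summit in both lists was perm-3, which shares its summit, followed by mrpl-17, 1.33 percentage points away. For swsn-1 the nearest were nipi-3 (0.700) and C09E9.1 (1.27). For swsn-3 they were smr-1 (1.14) and wdr-23 (1.80). With 2 samples this likeness says only that the peaks have similar ranks.

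Of the 6 other SWI/SNF subunit genes, 2 had a conservative summit within 500 bp of the start, where 9.78% of all protein-coding genes had one, and the 2 longest had their strongest peaks inside. The 2 marked at the start were phf-10, a PHD finger subunit gene (-129 bp, signal 97.6, rank 2535), and dpff-1, which encodes a related DPF protein (34 bp, in the 5′ UTR, signal 94.7, rank 2651). Both signals were below those of the 3 marked swsn genes in the conservative list. In the replicates' own lists phf-10 was marked in replicate 1 only (signal 67.1, rank 1463 of 2613), just ahead of swsn-6 there (rank 1487), and dpff-1 in replicate 2 only (signal 54.8, rank 2367 of 3082). ham-3 and snfc-5, the SNF5 homolog gene, had no summit in the window in any thresholded list.

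let-526 encodes the ARID1 homolog that marks the BAF form, and the literature also calls it swsn-8; neither annotation used here pairs the names, so it is kept apart from the members. It had none within 500 bp but 8 conservative summits in all, every one of them inside the gene. Of these 8, 4 had a q-value above 0.05. As many or more conservative summits were found in the window of 0.0401% of protein-coding genes, and egl-27, listed below, also held 8. The 8 summits of let-526 come from fewer separate sites. Those at 636 and 841 bp share an interval, as do those at 4105 and 4305 bp, and the peaks at 11076 and 11276 bp overlap. The gene let-526 is also long (chromosome I, 5300852 to 5317392), which widens its window. Its strongest was 4305 bp into the gene, in an intron (signal 311, rank 330), with summits at 4370 bp in replicate 1 (signal 119, rank 514 of 2613) and 4306 bp in replicate 2 (signal 167, rank 339 of 3082). Another intronic summit at 841 bp (signal 237, rank 628) overlaps the antisense RNA gene F48C1.15. Both replicates listed it, at 828 bp in replicate 1 (signal 74.97) and 817 bp in replicate 2 (signal 156). The list of replicate 1 held 4 summits in the window and that of replicate 2 held 5, counts reached by 0.140% and 0.135% of protein-coding genes in those lists. The other thresholded series list held 5, reached by 0.210%. pbrm-1, the polybromo subunit gene of PBAF, had its strongest summit 5086 bp into the gene, also in an intron (signal 368, rank 189), with 5021 bp in replicate 1 (signal 143) and 5092 bp in replicate 2 (signal 214). Of the 4 conservative summits of pbrm-1, the one at 5288 bp was weak (signal 11.2, rank 4181), with a q-value above 0.05. It shares the interval of the strongest. Another 2 were upstream, at -998 bp (signal 127) and -778 bp (signal 99.5). These 2 upstream summits lie inside another protein-coding gene, T28F4.4, in an intron and in the 5′ UTR, and their peak intervals overlap. Replicate 1 listed both, at -1046 bp and -811 bp, and replicate 2 listed 1, at -983 bp.

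**Figure D3:**
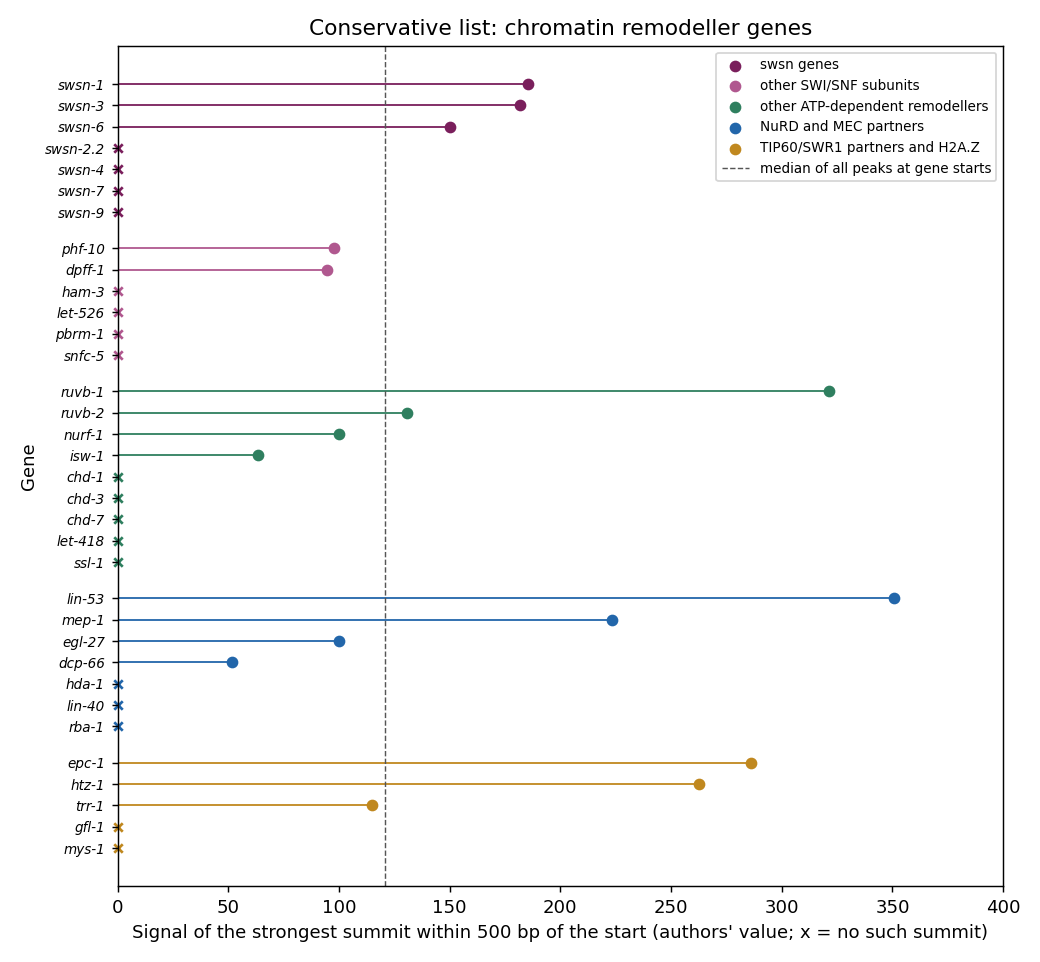
Signal (authors' value, horizontal axis) of the strongest conservative summit within 500 bp of the start of each swsn gene and of 27 other chromatin remodeller genes, coloured by list; a cross marks a gene with none. The 3 marked swsn genes lie at 150.1 to 185, all to the right of the dashed median of all start peaks at 121. lin-53 reaches 351, but its summit lies nearer to another protein-coding start, as does that of swsn-6.

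Genes of other remodelling complexes were read by the same rule. In the 3 lists of such genes together, 11 of 21 had a conservative summit within 500 bp, with a median signal of 131 among those 11, where 9.78% of all protein-coding genes had one. In the replicates' own lists 6 of 21 were marked in replicate 1, where 6.06% of all protein-coding genes were, and 8 of 21 in replicate 2, where 7.3% were. isw-1, egl-27 and dcp-66 had no start summit in either replicate's list. Of 9 other ATP-dependent remodeller genes, 4 were marked. ruvb-1, for a RuvB-like ATPase, had the highest signal of these (-62 bp, signal 321, rank 297), then came its partner ruvb-2 (-113 bp, 131), nurf-1 (-463 bp, 99.8), the BPTF homolog gene, and isw-1 (-95 bp, 63.3), which encodes the ISWI ATPase. The Mi-2 genes chd-3 and let-418, and ssl-1, had no conservative summit in their windows. chd-7 had one at -891 bp (signal 330.0) and chd-1 one at -548 bp (signal 85.0).

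Of 7 NuRD and MEC genes, 4 were marked at the start in the conservative list, where 9.78% of all protein-coding genes were. They were lin-53 (-241 bp, signal 351), a histone-binding WD40 protein gene, mep-1 (-217 bp, 223), egl-27 (-249 bp, 100.2), an MTA homolog gene, and dcp-66 (-191 bp, 51.9). Each replicate's own list marked 2 of the 7, lin-53 and mep-1. Of all protein-coding genes, 6.06% were marked in replicate 1 and 7.3% in replicate 2. hda-1, lin-40 and rba-1 had summits in their windows but none within 500 bp, and the one at rba-1 (-1894 bp) is the summit of lin-53. Of 5 TIP60 and SWR1 partner genes with H2A.Z, 3 were marked, namely epc-1 (-138 bp, 286), htz-1 (-288 bp, 263), which encodes H2A.Z, and trr-1 (-210 bp, 114.9), while mys-1 and gfl-1 had no summit. In the replicates' own lists 2 of these 5 genes were marked in replicate 1 and 3 in replicate 2, beside the same shares of all protein-coding genes. The peaks of isw-1 and dcp-66 had q-values above 0.05 and were absent from the other thresholded series list. With summits given to the nearest protein-coding start alone, 9 of the 27 listed genes were marked instead of 13, where the share of all protein-coding genes was 7.98%. lin-53, htz-1, nurf-1 and trr-1 then dropped out, because their start summits lie nearer to another protein-coding start.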

How the data were processed

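Per the deposited file listing, peak lists on ce11 were made from the replicate alignments, a control alignment and, for thresholded lists, an undescribed file. Aligner and peak caller: not given in the sources used here. Peaks carry a score, which the authors scaled from the IDR and which is at least 830 in thresholded lists, a signal that the authors computed as enrichment, and −log10 values of the q-value and global IDR, also deposited by the authors. A summit is the peak start plus the deposited offset, made 1-based. A gene start is the outermost 5′ end in Ensembl release 115, on the same build as the files. Ranks, distances, counts and Wilson intervals were computed in Python 3.11.15 with numpy 2.4.6, pandas 2.3.3 and scipy 1.17.1. As a test on simulated data, 200 summits were planted near gene starts with no other protein-coding start close by. Of the genes whose planted summit lay within 500 bp, the search found 100% among 19973. Crowded starts, such as that of swsn-6 beside perm-3, were not part of this test. With 1 group no test of a condition was made.

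The members, the 4 gene lists and the motifs were chosen with earlier results of these data known. Genes named are the members, their neighbouring genes, the listed remodeller genes, and for each member with a start summit in both replicates the 2 genes nearest in rank. Sequences were planned for summits within 500 bp of a start, and those of swsn-4 and swsn-7 were added. Alternatives tried were the other thresholded series list, either replicate alone, q-values up to 0.05, global IDR up to 0.01, the stronger peaks by signal, 1 summit per region, distances of 250 and 1000 bp, upstream limits of 1000 and 500 bp, any transcript start, and the nearest start alone. Counting let-526 as a member was chosen after seeing the data.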

Additional observations from a re-analysis of the deposited data

How the results depend on the processing

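Within 500 bp, 3 swsn genes were marked under each of the 7 alternatives that change the list or the peaks, and with any transcript start. The limits on q-value, global IDR and signal could not change this count. They only remove peaks from the conservative list, and the summits of these 3 genes were already known to pass them. The IDR limit left the count of all protein-coding genes at 1954. The count was 2 with 250 bp and with the nearest start alone, and 5 with 1000 bp, where 13.0% of all protein-coding genes were marked. The count over the whole window was 5 under every list and peak alternative and with 1000 bp upstream, and 3 with 500 bp upstream. Here too the limits on q-value, global IDR and signal could not change the count, since the strongest summit of each of the 5 genes passes them. The share of all protein-coding genes in that window was 12.3% in replicate 1, 14.1% in replicate 2 and 19.3% in the other thresholded series list. It was not computed for the peak alternatives or for the upstream limits of 1000 and 500 bp, so those counts have no background beside them. Counting let-526 as a member gave 3 of 8 and 6 of 8, and 1 of 8 genes with a summit inside, against 0 of 7 without it under every list and peak alternative. The peak alternatives only remove peaks, so they could not raise that 0 of 7. Of all protein-coding genes, 1954 had a summit within 500 bp, 1159 among the stronger peaks and 1251 with 250 bp, and 1210 to 1459 with 1 replicate left out. Of the 27 other remodeller genes, 13 were marked, 7 among the stronger peaks and 7 to 9 with 1 replicate left out. The count was 9 with the nearest start alone, where 7.98% of all protein-coding genes were marked. The signals of swsn-1, swsn-3 and swsn-6 in the replicates' own lists were lower than in the conservative list, and the scales of separately called lists may differ. For swsn-6 the nearest start alone gave no value, since its summit then belongs to perm-3. No paired analysis was possible because there is 1 group. With no read counts, depth cannot be weighed, and a gene without a listed peak is not shown to be free of HMG-1.1.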
